A study of Mus musculus with 12 samples.

Results

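Min6 cells, a mouse pancreatic beta cell line, were kept for 48 h either with the FoxO1 inhibitor AS1842856 alone (FoxOi, 1 µM) or with loperamide alone (Loperamide, 5 µM), and the transcriptomes of these single-compound groups were set directly against each other. Of the 12 libraries of the series, 6 entered this comparison, 3 FoxOi and 3 Loperamide, and all 55487 genes of the count table were considered. The 3 libraries in DMSO, the solvent, served as the background for both compounds, and the 3 libraries of the combined treatment entered the filter on low counts, the scaling and the estimate of the spread. All groups are the same cell line with no genetic change named, they differ by the compound in the medium, and the compounds were given at different concentrations. Nothing in the labels tells whether replicate libraries were grown as separate cultures, so every p-value measures only the spread between these libraries, which may be technical. A further limit of the model is that Min6 is a single line that keeps dividing, and that bulk RNA cannot tell fewer cells of a type apart from less RNA per cell.

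FoxO1 is a forkhead transcription factor that insulin and growth factor signalling holds in the cytoplasm through Akt. In beta cells it is known for linking nutrient and stress signals to cell identity, and its loss in mouse beta cells under metabolic stress is known to be followed by dedifferentiation. AS1842856 binds FoxO1 and blocks its transcriptional activity. Loperamide is an agonist of the mu opioid receptor that is used against diarrhoea, and it is also known as a blocker of voltage-gated calcium channels at higher concentrations. The title of the series places the inhibitor in a model of beta cell dedifferentiation and asks about the repression of glucagon and the maturation of insulin. The direct comparison asks which genes the compounds set apart.

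The cells carried the defining beta cell transcripts in both groups, with Ins2, Ins1, Iapp, Pdx1 and Nkx6-1 all detected in every library. Total counts ran from 17080681 to 19499216 in the FoxOi libraries and from 10640485 to 14009431 in the Loperamide libraries, so every FoxOi library was deeper than every Loperamide library, and the DMSO libraries held 14358011 to 17045589. Insulin transcripts took 1.79% to 2.14% of all counts in the FoxOi libraries, against 4.52% to 4.66% in the Loperamide libraries and 3.85% to 5.63% in the DMSO libraries. Across genes, log2 levels correlated at 0.987 to 0.992 within the groups and at 0.940 to 0.947 between FoxOi and Loperamide libraries. On the first principal component, which held 78.1% of the variance of the 6 libraries, the groups separated, and no library stood apart from its group.

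About as many genes passed the test as did not, at an adjusted p under 0.05 in edgeR's quasi-likelihood test with Benjamini-Hochberg adjustment. Of 16808 genes with enough counts to be tested, 8331 (49.6%) were called, with 4285 (25.5%) higher and 4046 (24.1%) lower in FoxOi than in Loperamide. These shares are the background for every gene group below. Most of the changes were modest. The median absolute log2 fold change of called genes was 0.69, and 3319 called genes (39.8%) changed by less than 1.5-fold. At least 2-fold changes were called for 2449 genes (14.6%), 1153 (6.86%) higher and 1296 (7.71%) lower. The largest changes were mostly rises, as 77 genes were called higher by 16-fold or more and 14 were called lower by that much. For 9665 genes (57.5%) the FoxOi and Loperamide libraries did not overlap, 4967 (29.6%) with FoxOi above and 4698 (28%) with FoxOi below. Levels are given as CPM, counts scaled to the same library size (mean ± SD, n = 3, where 1 value stands for a group), and a bare value after a gene is its log2 fold change, FoxOi over Loperamide, ± SE. The median over all tested genes was 0.02 on the log2 scale, with quartiles of -0.38 and 0.41. Of the 8477 genes not called, 3775 (44.5%) had a 95% interval that lay within 0.5 log2 units of zero, while for the others the data leave room for larger differences.

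**Figure D1:**
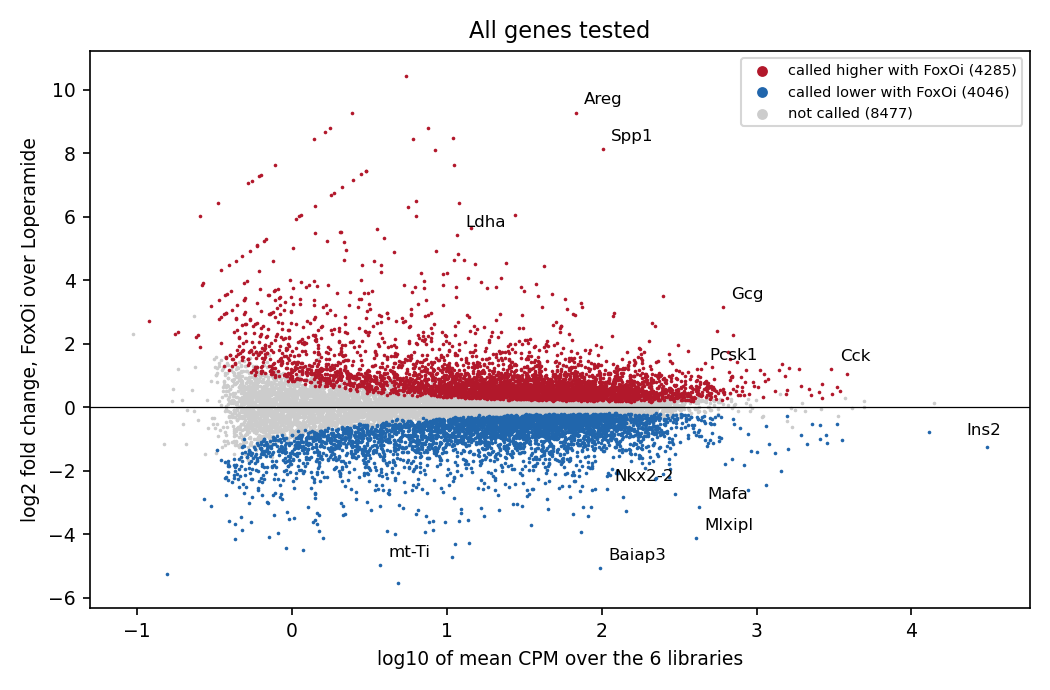
Each point is 1 of the 16808 tested genes, with its mean level over the 6 libraries (log10 CPM) on the horizontal axis and its log2 fold change, FoxOi over Loperamide, on the vertical axis. The 4285 genes called higher are red, the 4046 called lower are blue and the 8477 not called are grey. The rises extend past 9 log2 units among genes of low level, and the falls end near -5.

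Insulin was lower with the FoxO1 inhibitor than with loperamide. Ins2 (ENSMUSG00000000215, chromosome 7, 142678656 to 142743381), the mouse gene nearest to human insulin, had 19759, 18032 and 16606 CPM in the FoxOi libraries and 43539, 43494 and 43143 CPM in the Loperamide libraries. All FoxOi libraries lay well below all Loperamide libraries, and the log2 fold change was -1.26 ± 0.13 (SE; adjusted p = 1.74e-06), that is 2.39-fold lower in FoxOi. Ins1 (ENSMUSG00000035804, chromosome 19, 52264297 to 52265476) had 1433, 1484 and 1242 CPM in the FoxOi libraries and 2351, 2782 and 2407 CPM in the Loperamide libraries. Here too the groups did not overlap (log2 fold change -0.86 ± 0.13, adjusted p = 9.09e-05). The DMSO libraries averaged 46622 ± 9625 CPM of Ins2 and 3893 ± 809 CPM of Ins1 (SD, n = 3). Iapp, the amyloid peptide stored with insulin, did not pass the test, at 14665 ± 955 CPM in FoxOi and 13322 ± 308 CPM in Loperamide (SD, n = 3 each; 95% interval of the log2 difference -0.06 to 0.34). Ucn3, a peptide of mature beta cells, was lower at 4.51 ± 1.09 CPM in FoxOi and 10.7 ± 0.23 CPM in Loperamide (log2 fold change -1.25 ± 0.21, adjusted p = 0.000204).

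The convertases that cut proinsulin moved in opposite directions. Pcsk1 (ENSMUSG00000021587, chromosome 13, 75089826 to 75134861), which makes the first cuts in proinsulin, had 589, 636 and 609 CPM in the FoxOi libraries and 228, 290.0 and 271 CPM in the Loperamide libraries. Every FoxOi library was above every Loperamide library, with a log2 fold change of 1.22 ± 0.09 (adjusted p = 6.99e-08). Pcsk2 (ENSMUSG00000027419, chromosome 2, 143546156 to 143816285), the convertase that turns proglucagon into glucagon and also acts on proinsulin, had 1781, 1628 and 1688 CPM in the FoxOi libraries and 3232, 3404 and 3615 CPM in the Loperamide libraries. Its groups were apart in the other direction (log2 fold change -1.01 ± 0.09, adjusted p = 5.17e-07). Among granule proteins, the neuroendocrine precursor Vgf was higher at 1189.5, 1176 and 1135 CPM in the FoxOi libraries and 236, 246 and 235 CPM in the Loperamide libraries, the highest Loperamide library lying far below the lowest FoxOi library (log2 fold change 2.29 ± 0.08, adjusted p = 9.43e-11). Pam, the enzyme that amidates peptide hormones, was also higher (412 ± 44.7 CPM in FoxOi and 128 ± 19.8 CPM in Loperamide, log2 fold change 1.68 ± 0.13, adjusted p = 7.6e-08), as was the granule protein Scg3 (log2 fold change 0.67), while chromogranin A (Chga) was lower at 9532 ± 1185 CPM in FoxOi and 16532 ± 493 CPM in Loperamide (log2 fold change -0.79 ± 0.12, adjusted p = 5.43e-05). Of the 21 tested genes of prohormone processing and granules, 6 were higher and 10 lower, with a median log2 fold change of 0.01 that was -0.01 without Loperamide replicate 2.

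Glucagon and somatostatin, hormones of other islet cells, were higher with the inhibitor than with loperamide. Glucagon (Gcg, ENSMUSG00000000394, chromosome 2, 62474530 to 62483650) had 1134, 1249.6 and 868 CPM in the FoxOi libraries and 112, 156 and 96.5 CPM in the Loperamide libraries. The groups were separated by a wide gap, with 8.92-fold more in FoxOi (log2 fold change 3.16 ± 0.21, adjusted p = 1.24e-07), and the DMSO libraries averaged 717 ± 131 CPM. Somatostatin (Sst) had 142, 51.3 and 122 CPM in the FoxOi libraries and 15.9, 7.9 and 6.47 CPM in the Loperamide libraries. Its FoxOi libraries varied widely but all lay above the Loperamide libraries (log2 fold change 3.40 ± 0.49, adjusted p = 0.000171). Cholecystokinin (Cck), a gut and brain peptide, was higher at 4242 ± 133 CPM in FoxOi and 1845 ± 264 CPM in Loperamide, and neurotensin (Nts) was higher at 4.23 ± 0.956 CPM in FoxOi and 0.117 ± 0.145 CPM in Loperamide, a log2 fold change of 5.22 that was 6.57 without Loperamide replicate 1. Prodynorphin (Pdyn), an opioid peptide precursor, and Ddc, which makes dopamine and serotonin, were lower with log2 fold changes of -2.01 and -1.18. In all, 6 of 16 tested hormone and neuropeptide genes were higher and 2 lower, with a median of 0.36. Against DMSO the medians of this list were -0.57 with FoxOi and -1.19 with Loperamide. Cck averaged 5491 CPM in DMSO, above both groups.

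Markers of alpha and delta cells were read beside these hormones. Of 8 tested alpha cell markers, 4 were higher and 2 lower, with a median of 0.75. Transthyretin (Ttr) and the vitamin D binding protein Gc were among the higher, at log2 fold changes of 1.43 ± 0.24 and 3.79 ± 0.35, the last of which was 4.67 without Loperamide replicate 2. The arginine transporter Slc7a2 was among the lower at -1.59 ± 0.16. Summed over all 11 markers in the table, tested or not, alpha cell markers came to 3605 to 4301 CPM in FoxOi, 2333 to 2795 CPM in Loperamide and 6062 to 7105 CPM in DMSO libraries, with the amino acid transporter Slc38a5, which was not called, beside Ttr and Gcg as its main part. All 7 delta and PP cell markers summed to 75.9 to 163 CPM in FoxOi, 15 to 35.2 CPM in Loperamide and 63.6 to 107 CPM in DMSO libraries, and Hhex, which defines delta cells, had 0 counts in all 3 groups.

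**Figure D2:**
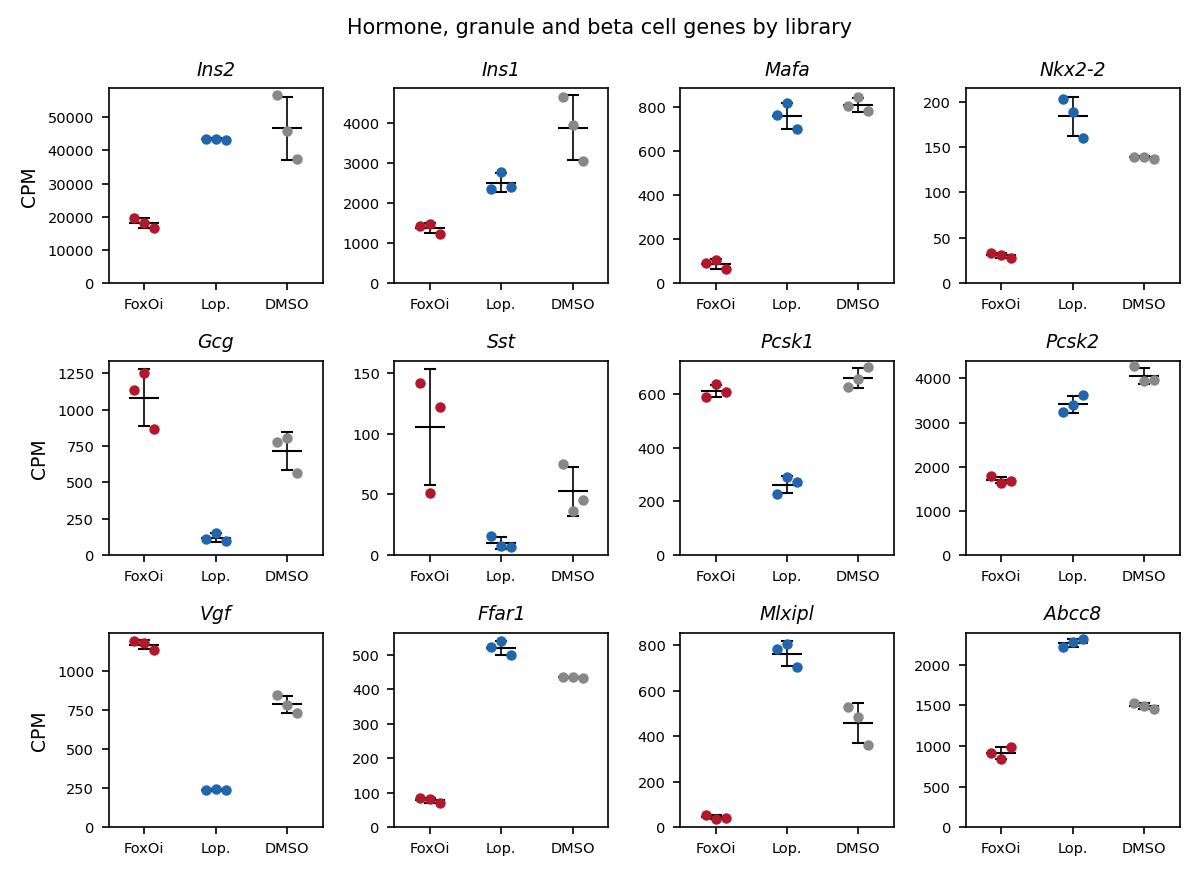
CPM values are plotted for 12 beta cell, hormone and granule genes, with 1 point per library and the mean ± SD of the 3 libraries of each group, FoxOi to the left of Loperamide and DMSO. Ins2, Mafa, Nkx2-2, Ffar1 and Mlxipl sit lower in FoxOi than in Loperamide, and Gcg, Sst, Pcsk1 and Vgf sit higher, with no overlap between the FoxOi and Loperamide points.

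Most beta cell transcription factors were lower with the inhibitor. Mafa (ENSMUSG00000047591, chromosome 15, 75745490 to 75748228), an activator of the insulin genes that marks mature beta cells, had 90.8, 107 and 62.3 CPM in the FoxOi libraries and 764, 819 and 699.8 CPM in the Loperamide libraries. It was 8.8-fold lower in FoxOi, with every FoxOi library far below every Loperamide library (log2 fold change -3.14 ± 0.15, adjusted p = 1.79e-09). Nkx2-2, which represses other islet fates, had 33.4, 31.4 and 27.5 CPM in the FoxOi libraries and 203, 189 and 160.4 CPM in the Loperamide libraries. These groups were as clearly apart (log2 fold change -2.58 ± 0.10, adjusted p = 1.66e-10). Pdx1, the master factor of pancreas and beta cells, was lower to a smaller extent, at 175 ± 4.61 CPM in FoxOi and 328 ± 14.4 CPM in Loperamide (log2 fold change -0.90 ± 0.08), and so was Nkx6-1 at 193 ± 32.8 CPM in FoxOi and 337 ± 30.3 CPM in Loperamide (-0.80 ± 0.11). Pax6 (-1.79), Rfx6 (-1.77), Myt1 (-1.93), Isl1 (-1.19) and Neurod1 (-0.87 on the log2 scale), all needed for endocrine development or function, were lower too. Of 18 tested members of the list, 14 were lower, and the other 4, with Insm1 at 286 ± 48.6 CPM in FoxOi and 269 ± 31 CPM in Loperamide among them, did not pass the test. The median was -0.89. The endocrine progenitor factor Neurog3 had 0 counts in all 3 groups, and the dedifferentiation marker Aldh1a3 had 36 counts in FoxOi, 10 in Loperamide and 24 in DMSO, too few to be tested.

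The genes that couple glucose to secretion were mostly lower. Of 23 tested, 16 were lower and 2 higher, with a median log2 fold change of -1.02. 1 of the higher pair was lost without FoxOi replicate 2 or 3 or Loperamide replicate 1 or 2. The free fatty acid receptor Ffar1, which amplifies insulin secretion, had 84.7, 80.3 and 70.7 CPM in the FoxOi libraries and 522, 539 and 497 CPM in the Loperamide libraries. It was 6.61-fold lower in FoxOi with no overlap (log2 fold change -2.72 ± 0.12, adjusted p = 4.19e-10). Its neighbour Ffar3, a receptor for short-chain fatty acids, lies with it within 7.24 kb of chromosome 7 (30854330 to 30861564) and was also lower (log2 fold change -3.12 ± 0.21, adjusted p = 4.52e-08). The subunits of the ATP-sensitive potassium channel, Abcc8 and Kcnj11, fell together, with Abcc8 at 908 ± 75 CPM in FoxOi and 2269.7 ± 50.7 CPM in Loperamide and log2 fold changes of -1.32 ± 0.08 and -1.39 ± 0.08. The calcium pump of the endoplasmic reticulum (ER) encoded by Atp2a3 had 386, 336 and 349.9 CPM in the FoxOi libraries and 1944, 1889.9 and 2006 CPM in the Loperamide libraries. All FoxOi libraries were below the Loperamide libraries by a wide margin (log2 fold change -2.45 ± 0.09, adjusted p = 9.43e-11). Pyruvate carboxylase (Pcx), which feeds pyruvate into the mitochondrial cycle of the beta cell, was lower at a log2 fold change of -1.48 ± 0.08. G6pc2, the islet glucose-6-phosphatase, had 1705 ± 69.5 CPM in FoxOi and 1813 ± 112 CPM in Loperamide and did not pass the test.

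Receptors, channels and the release machinery showed mixed calls around a lower median. The incretin receptor Gipr was lower at a log2 fold change of -2.47 ± 0.13, and the related Glp1r by less (-0.93 ± 0.08). The serotonin receptor Htr1d was lower at 2.7 ± 1.37 CPM in FoxOi and 15.6 ± 3.92 CPM in Loperamide. Of 20 tested G protein-coupled receptors of beta cells, 13 were lower and 4 higher (median -0.83). Of 25 tested calcium channel and calcium handling genes, 11 were lower and 6 higher, and 3 were higher without FoxOi replicate 2 or without Loperamide replicate 2. The L-type channel subunit Cacna1d (-1.28 ± 0.09), its partner Cacnb1 (-2.04 ± 0.13) and the plasma membrane pump Atp2b2 (-1.34 ± 0.13) were among the lower on the log2 scale, and the release channel Ryr2 (2.10 ± 0.20) was among the higher. Cacna1c, an L-type subunit of higher level than Cacna1d, was lower by less (-0.83 ± 0.13). It averaged 94.8 CPM in FoxOi, 168.7 CPM in Loperamide and 91.6 CPM in DMSO. Among 20 tested potassium channel genes, 9 were lower and 3 higher, the last count being 5 without Loperamide replicate 3, under the replicate block or with no filter, and the repolarising channel Kcnh6 was lower at -2.84 ± 0.21. Of 25 tested exocytosis genes, 13 were lower and 7 higher (median -0.23). The vesicle proteins Cplx2 (-1.76 ± 0.09), Rph3al (-2.13 ± 0.16), Rab27a (-1.17 ± 0.09) and the calcium sensor Syt7 (-1.08 ± 0.09) were lower, whereas the related Syt4 was higher (1.21 ± 0.16).

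Genes that healthy beta cells keep off, the so-called disallowed genes, were mostly higher with the inhibitor. Lactate dehydrogenase A (Ldha, ENSMUSG00000063229, chromosome 7, 46841475 to 46855627), the textbook example, had 21.1, 18.9 and 28.7 CPM in the FoxOi libraries and 0.28, 0.532 and 0.719 CPM in the Loperamide libraries. All FoxOi libraries lay far above the Loperamide libraries, at 42.8-fold (log2 fold change 5.42 ± 0.32, adjusted p = 7.56e-09). The lactate carrier Slc16a1 was higher at 88.9 ± 14.7 CPM in FoxOi and 24.4 ± 3 CPM in Loperamide (log2 fold change 1.86 ± 0.17, adjusted p = 6.75e-07), as were the thioesterase Acot7 (2.83 ± 0.26) and the chemokine Cxcl12 (2.68 ± 0.18). Of 14 tested disallowed genes, 9 were higher and 1 lower, with a median of 0.95, and the lower gene was lost without FoxOi replicate 1 or 2 and joined by another under the replicate block. Glycolysis went the same way, with 15 of 19 tested genes higher and 3 lower (median 1.05). The glucose transporter Slc2a1 was higher by a log2 fold change of 1.99 ± 0.12, and the glycolytic enzymes Eno1, Pgk1 and Aldoa by 1.47 ± 0.09, 1.47 ± 0.08 and 1.13 ± 0.10. Aldoc, a further aldolase, was lower (-1.19 ± 0.11). Many of these genes have processed pseudogenes of near-identical sequence, so short reads may be split between copies and their exact levels are uncertain. Of 12 tested genes of the hypoxia response, 4 were higher and 5 lower (median -0.16), with adrenomedullin (Adm) at 3.97 ± 0.28 and the collagen hydroxylase P4ha1 at 1.39 ± 0.10 among the higher.

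The largest changes in the transcriptome were rises of genes that were close to absent with loperamide. Amphiregulin (Areg, ENSMUSG00000029378, chromosome 5, 91139599 to 91148432), a ligand of the EGF receptor, had 122, 168 and 117.95 CPM in the FoxOi libraries and 0.186, 0.228 and 0.216 CPM in the Loperamide libraries. Areg was readily detected in each FoxOi library and near 0 in each Loperamide library, and the DMSO libraries averaged 0.406 ± 0.17 CPM (log2 fold change 9.28 ± 0.24, adjusted p = 3.88e-12). Osteopontin (Spp1), a secreted matrix protein, had 182, 235 and 189 CPM in the FoxOi libraries and 0.746, 0.836 and 0.575 CPM in the Loperamide libraries. It too separated the groups completely (log2 fold change 8.13 ± 0.20, adjusted p = 3.27e-12). Epiregulin (Ereg), another EGF receptor ligand, had 152 counts over the FoxOi libraries and 0 over the Loperamide libraries, which is at least 34.8-fold higher when the Loperamide group is given a floor of 3 counts. Betacellulin (Btc) had 64 counts against 1, a ratio of 44.0 with a counting interval of 7.62 to 1766. These intervals and floors cover counting error only, and with so few counts the size of a change is poorly known even where its direction is plain. Areg, Ereg, Btc and the predicted gene Gm19619 between them lie within 328 kb of chromosome 5 (91074622 to 91402994), and all 4 were called higher. The heparin-binding ligand Hbegf was higher as well (1.13 ± 0.11), and the receptor Egfr was lower (20.6 ± 0.89 CPM in FoxOi and 60.3 ± 8.72 CPM in Loperamide, log2 fold change -1.55 ± 0.10, adjusted p = 2.72e-08). Of 7 tested genes of the EGF receptor family and its ligands, 5 were higher and 1 lower.

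The matrix metalloproteinases Mmp10, Mmp12 and Mmp13, which cut extracellular matrix, were close to absent with loperamide and present with the inhibitor. Mmp13 had 272 counts over the FoxOi libraries and 0 over the Loperamide libraries (at least 61.3-fold), Mmp12 had 28 and 0 (at least 6.42-fold), and Mmp10 had 331 and 1, a ratio of 228 with a counting interval of 40.6 to 9020. The 3 genes lie within 238 kb of chromosome 9 (7272514 to 7510240). The plasminogen activators Plau and Plat and the urokinase receptor Plaur were higher too. Plau had 223 counts and 3, a ratio of 51.1 with a counting interval of 17.3 to 249.8. Plat had 23.6, 25.9 and 23.2 CPM in the FoxOi libraries and 6.15, 6.69 and 5.82 CPM in the Loperamide libraries, with no overlap (log2 fold change 1.96 ± 0.14, adjusted p = 4.09e-08), and Plaur had 6.68, 7.03 and 7.02 CPM in the FoxOi libraries and 0.0932, 0.152 and 0.144 CPM in the Loperamide libraries, again with no overlap (log2 fold change 5.63 ± 0.31, adjusted p = 4.01e-09). In all, 6 of 9 tested genes of this group were higher, and the other 3 did not pass the test. The median log2 fold change of 5.52 rests on genes near 0 in Loperamide, and it was 3.74 where genes needed at least 1 CPM in 3 libraries and 3.73 where only the 6 libraries were fitted.

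The 250 bases before the start of these genes were searched for the AP-1 motif TGANTCA, the site read by Fos and Jun proteins, on both strands (the motif is nearly its own reverse complement). Of 7 genes of the group with a RefSeq promoter, 4 (57.1%) held it, against 2113 of 27025 genes in the table (7.82%) and 575 of 10861 tested genes with a promoter (5.29%). The share was 180 of 2815 (6.39%) for genes called higher and 172 of 2946 (5.84%) for genes called lower. It was 4 of 10 for the 12 largest rises, 2 of 9 for the 12 largest falls, and 0 of 18 for the AP-1 and immediate early genes themselves. Mmp10 and Mmp13 are counted both in the group and in the largest rises. These sets were chosen with the values known, so their shares are a description only. The FoxO core motif GTAAACA was in 2 of the 7 genes, against 289 of 10861 tested genes (2.66%). A match is a description of the sequence and not evidence of binding. The promoters of Mmp10, Mmp13 and Plaur are shown because these genes were among those that changed most, with the match in capitals. They are from RefSeq on GRCm38.p6, all on the plus strand, at chr9:7502092-7502341, chr9:7272264-7272513 and chr7:24462233-24462482, and the match begins 63, 35 and 69 bases before the start of each gene.
Mmp10: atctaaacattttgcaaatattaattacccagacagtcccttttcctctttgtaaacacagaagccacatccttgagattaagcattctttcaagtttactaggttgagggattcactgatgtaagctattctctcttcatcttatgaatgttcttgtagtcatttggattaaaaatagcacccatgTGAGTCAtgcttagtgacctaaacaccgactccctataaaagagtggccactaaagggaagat
Mmp13: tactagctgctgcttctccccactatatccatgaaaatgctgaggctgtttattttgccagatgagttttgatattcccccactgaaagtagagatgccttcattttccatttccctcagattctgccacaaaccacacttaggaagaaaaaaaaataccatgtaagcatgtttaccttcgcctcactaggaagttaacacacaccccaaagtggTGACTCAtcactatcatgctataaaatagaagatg
Plaur: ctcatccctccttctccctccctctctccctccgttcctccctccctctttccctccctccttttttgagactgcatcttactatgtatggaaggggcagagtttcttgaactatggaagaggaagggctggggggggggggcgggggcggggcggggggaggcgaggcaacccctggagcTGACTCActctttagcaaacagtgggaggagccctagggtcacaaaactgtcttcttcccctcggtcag

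Further large rises were seen in genes of differing function. The lysosomal membrane protein Gpnmb had 1214 counts over the FoxOi libraries and 2 over the Loperamide libraries, a ratio of 418 with a counting interval of 115 to 3452. Interleukin 4 (Il4), a cytokine, had 828 and 1 (ratio 570, 102 to 22524), and the mast cell tryptase Tpsab1 had 932 and 2 (ratio 321, 88.5 to 2651). The tight junction protein Cldn4 had 195 and 0 (at least 44.2-fold), and the cytoskeletal adaptor Pdlim1 had 177 and 0 (at least 41.0-fold). The axon guidance receptor Robo3 had 17.2, 13.8 and 35.7 CPM in the FoxOi libraries and 0, 0.152 and 0.144 CPM in the Loperamide libraries, without overlap (log2 fold change 7.62 ± 0.56, adjusted p = 1.61e-07). Secreted phospholipases A2, which release fatty acids from phospholipids, held both directions within 107 kb of chromosome 4 (138775735 to 138882817). Pla2g2e had 665 counts against 1 (ratio 457, 81.8 to 18096) and Pla2g5 was higher at 4.36 ± 1.01 CPM in FoxOi and 0.138 ± 0.121 CPM in Loperamide, with a log2 fold change of 4.96 that ran from 4.33 to 5.61 as Loperamide libraries were left out, whereas their neighbour Pla2g2d was lower (11.3 ± 1.56 CPM in FoxOi and 48 ± 10.2 CPM in Loperamide, log2 fold change -2.08 ± 0.22, adjusted p = 6.28e-06).

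Markers of other cell types were read beside these rises. The sums that follow run over every marker of a list in the table, tested or not. The 12 macrophage and leukocyte markers summed to 22.2 to 24 CPM in FoxOi, 4.64 to 5.32 CPM in Loperamide and 5.06 to 7.74 CPM in DMSO libraries. Of these, 3 were tested and 2 of them were higher, or 1 where genes needed at least 1 CPM in 3 libraries. The other 9 had 60 counts in all over the FoxOi libraries, 20 over the Loperamide libraries and 48 over the DMSO libraries. The tested marker that was not called, Lyz2, averaged 3.24 CPM in FoxOi and 2.87 CPM in Loperamide. Most of the FoxOi sum was Cd68. The lysosomal protein Cd68, which macrophages carry at high level and other cells at low level, was higher at 17.8 ± 0.169 CPM in FoxOi and 1.21 ± 0.172 CPM in Loperamide, and Csf1r was higher at 1.12 ± 0.234 CPM in FoxOi and 0.306 ± 0.283 CPM in Loperamide, with a log2 fold change of 1.92 that was 1.31 without Loperamide replicate 2 and 2.56 without Loperamide replicate 1. The pan-leukocyte marker Ptprc had 2 counts over the FoxOi libraries and 1 over the Loperamide libraries, Adgre1 had 1 and 0, Aif1 had 2 and 0, and Tyrobp had 0 in both. The 8 ductal markers include Spp1, and without it they summed to 128 to 165 CPM in FoxOi, 167 to 228 CPM in Loperamide and 251 to 341 CPM in DMSO libraries. Among them the keratin Krt7 was lower, at 139 ± 20.1 CPM in FoxOi and 195 ± 30 CPM in Loperamide (log2 fold change -0.48 ± 0.16, adjusted p = 0.0217), a call that was lost without FoxOi replicate 2 or 3 or Loperamide replicate 1, while Krt19 had 9 counts in FoxOi and 0 in Loperamide, and Sox9 had 7 and 1. The 14 acinar markers summed to 42.1 to 51.8 CPM in FoxOi and 23.4 to 29.9 CPM in Loperamide, with Cpa1, Cpb1 and Pnlip at 0 counts. The DMSO libraries held 95.2 to 119.7 CPM of these markers, above both groups. Most of each sum was Bhlha15, which averaged 46.1 CPM in FoxOi, 25.5 CPM in Loperamide and 102.5 CPM in DMSO. The 10 mesenchymal markers summed to 2.09 to 2.97 CPM in FoxOi and 3.19 to 4.39 CPM in Loperamide, although the 8 of them that were too low to be tested had 65 counts in all over the FoxOi libraries and 5 over the Loperamide libraries. The 6 endothelial markers summed to 1.1 to 1.74 CPM in FoxOi and 1.82 to 2.98 CPM in Loperamide, and the 4 untested ones had 8 and 3 counts. Of 13 tested neuronal markers, 6 were lower and 1 was higher. The higher count was 3 under the replicate block, 3 with the 6 libraries alone and 2 with no filter. The part of any other cell type in the rises was not tested. Among claudins and epithelial keratins, 6 of 15 tested were higher, with Krt8 (0.84 ± 0.14), Krt18 (0.97 ± 0.20) and the adhesion protein Epcam (1.15 ± 0.09) among them, and 6 were lower, with E-cadherin (Cdh1, -0.99 ± 0.10) among them.

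Feedback genes of ERK signalling, which report growth factor input to the nucleus, were mostly higher with the inhibitor. The ETS factor Etv4 had 30.2, 33.3 and 24 CPM in the FoxOi libraries and 0.932, 1.29 and 1.51 CPM in the Loperamide libraries. All FoxOi libraries were above all Loperamide libraries by an order of magnitude (log2 fold change 4.52 ± 0.22, adjusted p = 1.28e-09), and the DMSO libraries averaged 16 ± 2.54 CPM, between both groups. Its relative Etv5 was higher by 3.65 ± 0.16 on the log2 scale. The ERK phosphatase Dusp6 had 35.4, 33.3 and 29.1 CPM in the FoxOi libraries and 6.15, 6.08 and 6.83 CPM in the Loperamide libraries. These groups did not overlap (log2 fold change 2.35 ± 0.15, adjusted p = 1.12e-08), but both lay below the DMSO mean of 58.6 ± 11.6 CPM. The phosphatase Dusp4 (2.66 ± 0.28) and the feedback inhibitor Spry2 (2.49 ± 0.21) were higher as well. Of 17 tested, 10 were higher and 3 lower (median 0.76, or 1.27 where genes needed at least 1 CPM in 3 libraries).

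Most called AP-1 subunits and other immediate early genes were higher, whereas Egr1 was lower. Fosl1, an AP-1 subunit that ERK input raises, had 11.9, 13.4 and 7.89 CPM in the FoxOi libraries and 0, 0.076 and 0.288 CPM in the Loperamide libraries. It was near the limit of detection in Loperamide, so that its log2 fold change of 6.31 ± 0.47 (adjusted p = 7.55e-08) was 7.80 without Loperamide replicate 3. Fosl2 (2.32 ± 0.18), Fosb (2.33 ± 0.19) and Jun (1.35 ± 0.13) were also higher, as were the stress-inducible Atf3 (3.55 ± 0.23), Ier3 (1.83 ± 0.14) and the activity-dependent factor Npas4 (3.51 ± 0.19). Egr1, a zinc finger factor of the same early response, had 90.2, 112 and 91.4 CPM in the FoxOi libraries and 408, 451 and 488 CPM in the Loperamide libraries. Here the FoxOi libraries lay below the Loperamide libraries (log2 fold change -2.19 ± 0.16, adjusted p = 1.31e-07). Of 23 tested members, 16 were higher and 3 lower (median 1.25). Among 15 tested targets of cAMP and CREB, 9 were higher and 2 lower (median 1.07), with the orphan receptor Nr4a1 (2.56 ± 0.32), the GTPase Gem (2.06 ± 0.16) and Rgs2, a brake on G protein signalling (2.00 ± 0.11), higher and the cAMP phosphodiesterase Pde4b lower (-1.87 ± 0.12).

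**Figure D3:**
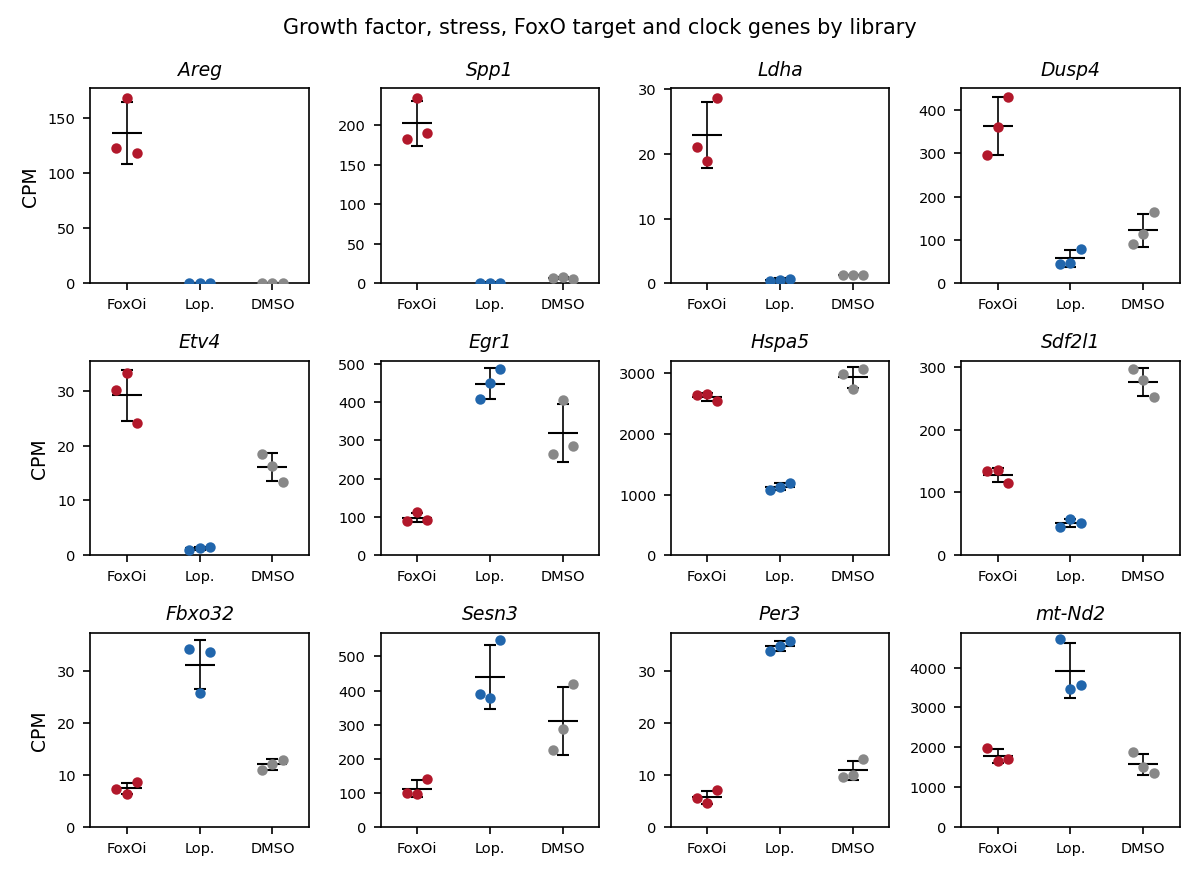
CPM values are plotted for 12 genes of growth factor signalling, ER stress, FoxO targets, the clock and the mitochondrial genome, with 1 point per library and the mean ± SD of 3 libraries per group, FoxOi to the left of Loperamide and DMSO. Areg, Spp1, Ldha, Dusp4, Etv4, Hspa5 and Sdf2l1 sit higher in FoxOi than in Loperamide, and Egr1, Fbxo32, Sesn3, Per3 and mt-Nd2 sit lower.

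Most genes of the secretory pathway were higher with the inhibitor than with loperamide, and both groups were at or below DMSO for most of the leading genes. The ER chaperone BiP (Hspa5, ENSMUSG00000026864, chromosome 2, 34771970 to 34777547) had 2647, 2654 and 2541 CPM in the FoxOi libraries and 1070.3, 1125 and 1190.4 CPM in the Loperamide libraries. No FoxOi library came near the Loperamide range (log2 fold change 1.21 ± 0.09, adjusted p = 1.13e-07), and the DMSO libraries averaged 2937 ± 172 CPM. The protein disulfide isomerase P4hb had 2379.9, 2203 and 2236 CPM in the FoxOi libraries and 890.0, 1034 and 997 CPM in the Loperamide libraries, without overlap (log2 fold change 1.22 ± 0.09, adjusted p = 7.47e-08), and the DMSO mean of 3325 ± 215 CPM was above both. The chaperone Hsp90b1 (1.17 ± 0.09), the isomerase Pdia6 (1.19 ± 0.08), the co-chaperones Dnajb11 (1.02 ± 0.08) and Sdf2l1 (1.32 ± 0.10), the lectin chaperone Calr (0.97 ± 0.08) and the oxidase Ero1l (1.91 ± 0.28) were higher on the log2 scale. The islet form of that oxidase, Ero1lb (-1.15 ± 0.11), and Derl3, which moves proteins out of the ER for degradation (-1.23 ± 0.23), were lower. Of 30 tested ER chaperone and unfolded protein response genes, 20 were higher and 3 lower, or 5 lower under the replicate block (median 0.59). Of 25 tested genes of ER translocation and transport to the Golgi, 22 were higher and the other 3 did not pass the test (median 0.48), with the retrieval receptor Kdelr3 at 2.75 ± 0.18, the translocon protein Ssr2 at 1.38 ± 0.10, the signal peptidase subunit Spcs1 at 0.82 ± 0.08 and the cargo receptor Tmed10 at 1.06 ± 0.09.

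The same 250-base windows were searched on both strands for the ER stress element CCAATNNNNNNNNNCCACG, which is known from the promoters of ER chaperone genes as a site of ATF6 and the factor NF-Y. Of 23 genes of the ER chaperone list with a RefSeq promoter, 9 (39.1%) held it, against 35 of 27025 genes in the table (0.13%). Derl3, which was lower with the inhibitor than with loperamide, was among these 9 genes. The element was described from genes of this kind, so its presence is no finding of these data. The promoters of Hspa5, Hsp90b1 and Pdia6 are shown with each match in capitals, from RefSeq on GRCm38.p6, at chr2:34771840-34772089 on the plus strand, chr10:86705445-86705694 on the minus strand and chr12:17266339-17266588 on the plus strand. The match begins 65 bases before the start of Hspa5 and 98 before that of Pdia6, while Hsp90b1 holds 2 matches, of which the nearer one begins at 107 bases and reads as the reverse complement.
Hspa5: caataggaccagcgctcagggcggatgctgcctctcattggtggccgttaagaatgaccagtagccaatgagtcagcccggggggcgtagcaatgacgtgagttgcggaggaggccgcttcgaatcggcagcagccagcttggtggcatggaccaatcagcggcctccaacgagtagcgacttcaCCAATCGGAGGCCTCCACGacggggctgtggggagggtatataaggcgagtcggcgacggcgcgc
Hsp90b1: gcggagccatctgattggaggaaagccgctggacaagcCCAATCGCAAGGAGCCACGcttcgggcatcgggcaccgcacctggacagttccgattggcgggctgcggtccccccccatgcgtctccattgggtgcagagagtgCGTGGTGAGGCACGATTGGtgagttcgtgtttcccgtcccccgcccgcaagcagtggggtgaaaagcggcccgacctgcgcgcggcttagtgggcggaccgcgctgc
Pdia6: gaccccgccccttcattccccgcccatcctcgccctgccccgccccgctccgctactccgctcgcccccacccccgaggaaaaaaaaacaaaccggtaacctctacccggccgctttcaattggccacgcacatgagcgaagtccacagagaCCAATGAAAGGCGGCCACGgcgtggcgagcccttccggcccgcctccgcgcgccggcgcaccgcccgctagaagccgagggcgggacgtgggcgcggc

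Most genes called in other stress programmes were higher as well. Of 27 tested genes of the ATF4 integrated stress response, 15 were higher and the other 12 did not pass the test, though 2 were lower under the replicate block and 1 with no filter or without Loperamide replicate 3 (median 0.47). The stress protein Nupr1 (2.95 ± 0.22), the secreted Stc2 (2.58 ± 0.26), the cystine carrier Slc7a11 (1.43 ± 0.19) and the phosphatase subunit Ppp1r15a (1.39 ± 0.17), which lifts the translational block, were higher on the log2 scale. Ddit3, the factor CHOP, had 136 ± 24.7 CPM in FoxOi and 109 ± 25.7 CPM in Loperamide, and Trib3 had 213 ± 30.9 CPM in FoxOi and 167 ± 50.1 CPM in Loperamide, and neither passed the test here (adjusted p = 0.307 and 0.295), although both did when the replicate number was entered as a block (6.39e-05 and 6.57e-05). Of 20 tested transfer RNA synthetases, 14 were higher and the other 6 did not pass (median 0.36). Among 16 tested cytosolic heat shock proteins, 11 were higher and 5 did not pass (median 0.65), with the small heat shock protein Cryab at 5.52, 9.99 and 7.63 CPM in the FoxOi libraries and 0.186, 0.076 and 0.288 CPM in the Loperamide libraries, its groups far apart (log2 fold change 5.32 ± 0.43, adjusted p = 1.43e-07). The p53 target Cdkn1a, an inhibitor of the cell cycle, had 488, 430.0 and 558 CPM in the FoxOi libraries and 131, 117.71 and 131 CPM in the Loperamide libraries, all FoxOi libraries lying above (log2 fold change 1.96 ± 0.12, adjusted p = 1.45e-08). Of 21 tested p53 targets, 11 were higher, with Perp (1.75 ± 0.17) and Aen (1.30 ± 0.10) among them, and 4 lower, or 2 without Loperamide replicate 1 (median 0.44). Of 16 tested NRF2 targets, 9 were higher and 3 lower (median 0.37), with the antioxidant genes Srxn1 (1.22 ± 0.08) and Hmox1 (0.87 ± 0.15) higher and the glutathione transferase Gstm1 lower (-2.06 ± 0.17).

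The FoxO genes themselves and their known targets were mostly lower with the inhibitor than with loperamide. Foxo1 (ENSMUSG00000044167, chromosome 3, 52268336 to 52353221) had 26.4, 23.8 and 26.7 CPM in the FoxOi libraries and 42.9, 46.7 and 49.5 CPM in the Loperamide libraries. All FoxOi libraries were below all Loperamide libraries (log2 fold change -0.85 ± 0.11, adjusted p = 1.27e-05), and the DMSO mean of 35.9 ± 4.51 CPM lay between them. Foxo3 (-0.85 ± 0.09) and Foxo4 (-0.43 ± 0.11) were lower as well. AS1842856 acts on the protein, so the transcript level is no measure of inhibition. Among FoxO targets, the muscle ubiquitin ligase Fbxo32 (atrogin-1) had 7.43, 6.42 and 8.61 CPM in the FoxOi libraries and 34.3, 25.8 and 33.6 CPM in the Loperamide libraries. The groups did not overlap (log2 fold change -2.06 ± 0.14, adjusted p = 3.45e-08). The stress proteins Sesn1 (-1.70 ± 0.10) and Sesn3 (-1.95 ± 0.26), the Myc antagonist Mxi1 (-1.55 ± 0.09) and the cyclin Ccng2 (-1.47 ± 0.14) were lower, whereas Klf6 (1.61 ± 0.15), catalase (Cat, 1.36 ± 0.33) and the growth arrest gene Gadd45a (0.72 ± 0.11) were higher. Of 22 tested, 13 were lower and 3 higher (median -0.59). The FoxO core motif GTAAACA, searched on both strands of the 250-base windows, was in 3 of 20 target genes with a promoter, against 956 of 27025 genes in the table (3.54%).

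Called genes of insulin signalling were mostly lower, and the glucose-sensing factor ChREBP was lower by a large amount. Of 21 tested genes of insulin and IGF signalling, 9 were lower, with the kinases Akt2 (-0.51 ± 0.08) and Pik3ca (-0.77 ± 0.18) and the mTOR complex subunit Rictor (-0.76 ± 0.17) among them. A further 2 were higher, against 1 without FoxOi replicate 2 or 3 or Loperamide replicate 1 or 2 and 4 under the replicate block, and the mTOR activator Rheb was at 1.23 ± 0.11. Mlxipl, which encodes ChREBP, had 55.5, 35.9 and 41.2 CPM in the FoxOi libraries and 782, 806 and 704 CPM in the Loperamide libraries. It was 17.3-fold lower in FoxOi with no overlap (log2 fold change -4.11 ± 0.22, adjusted p = 1.9e-08), among the largest falls of the transcriptome. Txnip, a target of ChREBP and a redox regulator, had 16.4, 15.5 and 21.9 CPM in the FoxOi libraries and 19.3, 20.8 and 27.2 CPM in the Loperamide libraries. The groups overlapped and the difference did not pass the test (adjusted p = 0.157), although it did without FoxOi replicate 3 (0.0474) and with the replicate block (0.00192).

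Further large falls were seen in genes of differing function. Baiap3, a vesicle priming protein of endocrine cells (ENSMUSG00000047507, chromosome 17, 25242659 to 25256364), had 7.72, 4.39 and 4.92 CPM in the FoxOi libraries and 217, 183 and 172 CPM in the Loperamide libraries. It was 33.7-fold lower in FoxOi, with every library on its own side (log2 fold change -5.07 ± 0.28, adjusted p = 2.87e-08). Secretagogin (Scgn), a calcium-binding protein of islets, was lower at 9.1 ± 1.03 CPM in FoxOi and 139 ± 13.2 CPM in Loperamide (log2 fold change -3.93 ± 0.15, adjusted p = 1.38e-10), as was sphingosine kinase 1 (Sphk1) at 0.534 ± 0.207 CPM in FoxOi and 8.69 ± 2.85 CPM in Loperamide (log2 fold change -4.01 ± 0.33, adjusted p = 1.95e-07). The water channel Aqp4, the ephrin receptor Epha1, the myosin Myo16 and Klhl14 had log2 fold changes of -4.29 ± 0.31, -3.86 ± 0.22, -4.27 ± 0.16 and -4.72 ± 0.18. Grrp1 (-4.51) and the mucin Muc4 (-3.90) rested on few counts in FoxOi, and their log2 fold changes reached -5.22 without FoxOi replicate 1 and -4.60 without FoxOi replicate 2, while that of Grrp1 was -3.91 without FoxOi replicate 3.

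Called genes of both lipid lists were mostly lower. Cholesterol synthesis and uptake was mostly lower, with 14 of 25 tested genes lower and 5 higher (median -0.35), the higher count being 3 without FoxOi replicate 2 and 2 without Loperamide replicate 2. The enzymes Mvd (-0.89 ± 0.13) and Tm7sf2 (-1.77 ± 0.19) were lower, and the sterol isomerase Ebp was higher (0.98 ± 0.12). Of 14 tested genes of fatty acid synthesis and desaturation, 6 were lower and 1 higher. Acly, which supplies acetyl-CoA in the cytosol, was lower at 1982 ± 106 CPM in FoxOi and 3599 ± 251 CPM in Loperamide (log2 fold change -0.86 ± 0.09, adjusted p = 3.21e-06), together with the desaturase Scd1 (-0.81 ± 0.14) and the regulator Srebf1 (-0.50 ± 0.11), and the elongase Elovl1 was higher (1.11 ± 0.10).

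Lysosomal genes were mostly higher, with 20 of 32 tested higher and 1 lower (median 0.35). Alpha-galactosidase (Gla) had 94.4, 84.4 and 96.8 CPM in the FoxOi libraries and 16.3, 15.5 and 17.5 CPM in the Loperamide libraries, with no overlap (log2 fold change 2.48 ± 0.12, adjusted p = 1e-09). The cathepsins Ctsz (1.76 ± 0.13) and Ctsb (1.16 ± 0.11), the protease Lgmn (1.04 ± 0.08) and the membrane protein Lamp1 (0.52 ± 0.08) were higher. Lamp2, also higher (0.44 ± 0.14), lost its call without FoxOi replicate 3, Loperamide replicate 1 or Loperamide replicate 2. Among 21 tested autophagy genes, 4 were higher, with the cargo receptor Sqstm1 at 1.35 ± 0.13, and 8 lower, with the initiating kinase Ulk1 at -0.94 ± 0.10.

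Called genes of mitosis, DNA replication and protein production were mostly higher with the inhibitor than with loperamide, by small amounts. Of 24 tested mitosis genes, 16 were higher (10 without Loperamide replicate 1) and 1 lower (2 without FoxOi replicate 1 or under the replicate block), with a median of 0.36. Cyclin B1 (Ccnb1) was higher at 54.7 ± 2.83 CPM in FoxOi and 31.5 ± 5.16 CPM in Loperamide (log2 fold change 0.79 ± 0.11, adjusted p = 3.33e-05), as were the kinase Cdk1 (0.76 ± 0.12), the spindle protein Tpx2 (0.52 ± 0.09) and the survivin gene Birc5 (1.01 ± 0.14). Of 27 tested DNA replication genes, 14 were higher and 1 lower (median 0.39), the lower count being 2 without Loperamide replicate 1, 3 under the replicate block, and 0 with no filter or without any other single library but FoxOi replicate 2. The higher ones were led by the ribonucleotide reductase subunit Rrm2 (1.38 ± 0.12) and the replication factor Mcm10 (1.21 ± 0.12). Of 12 tested D cyclins and CDK inhibitors, 2 were higher and 5 lower (median -0.12). Cyclin D2 (Ccnd2) was higher (1.78 ± 0.29), while the inhibitors Cdkn1b (-0.78 ± 0.10) and Cdkn2c (-0.79 ± 0.08) were lower. The inhibitor Cdkn1a, given above among p53 targets, was higher (1.96).

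Ribosome, proteasome and respiratory chain genes that were called were also higher by small amounts. Of 30 tested cytosolic ribosomal proteins, 22 were higher, with a median of 0.40, and the count was 13 without FoxOi replicate 1 and 14 without Loperamide replicate 3. These genes have many processed pseudogenes, so their own levels are uncertain. The elongation factors Eef1a1 (0.74 ± 0.11) and Eef2 (0.30 ± 0.08) were higher too. Of 23 tested mitochondrial ribosomal proteins, 12 were higher, with Mrpl12 at 0.89 ± 0.11. For the proteasome the count was 19 of 26 (median 0.37), with Psmd14 at 0.88 ± 0.08, and for nuclear subunits of oxidative phosphorylation it was 21 of 38 (median 0.27), with the electron carrier Cycs at 0.82 ± 0.11 and the synthase subunit Atp5b at 0.65 ± 0.07. The genes of these lists that were not called higher did not pass the test, except that 1 cytosolic ribosomal protein was lower under the replicate block.

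Called transcripts of the mitochondrial genome were mostly lower. Of 9 tested mRNAs of that genome, 4 were lower and 1 higher, or 2 higher under the replicate block or with no filter. mt-Nd2, a subunit of complex I, was lower at 1788 ± 173 CPM in FoxOi and 3919.6 ± 686 CPM in Loperamide (log2 fold change -1.13 ± 0.15, adjusted p = 1.92e-05), and so were mt-Nd3 (-1.05 ± 0.15) and mt-Nd4l (-0.57 ± 0.16). mt-Nd4 was lower (-0.52 ± 0.19) but lost its call without FoxOi replicate 2 or 3 or Loperamide replicate 1. mt-Co1 was higher (0.51 ± 0.18) but not without FoxOi replicate 1 (adjusted p = 0.131) or Loperamide replicate 3 (0.116). Mitochondrial transfer RNAs showed larger differences. mt-Ti, the transfer RNA for isoleucine, had 0.116, 0.22 and 0.307 CPM in the FoxOi libraries and 8.95, 6.76 and 5.82 CPM in the Loperamide libraries, with no overlap (log2 fold change -4.98 ± 0.31, adjusted p = 1.19e-08), and a DMSO mean of 0.193 ± 0.103 CPM. In all, 5 of 7 tested mitochondrial transfer RNAs were lower (median -2.45), and the median against DMSO was 0.48 for FoxOi and 2.93 for Loperamide. Poly(A) selection does not retain mature transfer RNA, so these levels are no measure of it. The mitochondrial genome took 1.77% to 2.25% of all counts in the FoxOi libraries and 1.89% to 2.80% in the Loperamide libraries. The 4 mRNAs that were not tested, mt-Co2, mt-Co3, mt-Atp6 and mt-Atp8, had at most 4 counts over the FoxOi, Loperamide or DMSO libraries. These shares therefore hold almost nothing from those mRNAs, and the reason was not tested.

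Several outputs of the circadian clock and most called interferon genes were lower with the inhibitor than with loperamide. Against DMSO, the clock list had medians of 0.34 with FoxOi and 0.81 with Loperamide. The interferon list had 0.12 with FoxOi and 0.56 with Loperamide, so neither median lay below DMSO with the inhibitor. The clock gene Per3 had 5.69, 4.56 and 7.07 CPM in the FoxOi libraries and 33.9, 35 and 35.9 CPM in the Loperamide libraries. All FoxOi libraries were below the Loperamide libraries (log2 fold change -2.59 ± 0.17, adjusted p = 1.77e-08), and the DMSO mean was 10.9 ± 1.86 CPM. The clock output factors Dbp (-1.80 ± 0.13) and Tef (-1.14 ± 0.12) and the repressor Nr1d2 (-1.72 ± 0.19) were lower, and the repressors Bhlhe40 (1.75 ± 0.11) and Nfil3 (2.13 ± 0.27) were higher. Of 18 tested clock genes, 4 were higher and 6 lower (median -0.18). Of 25 tested interferon response and MHC class I genes, 13 were lower and 4 higher, or 7 higher under the replicate block (median -0.44). The peptide transporter Tap2 (-1.36 ± 0.12) and the regulator Irf7 (-1.82 ± 0.21) were lower, whereas the antiviral gene Rsad2 was higher (3.75 ± 0.30).

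At the imprinted Dlk1-Dio3 locus on chromosome 12 (109452823 to 109749460, 297 kb), the long non-coding RNAs expressed from the maternal copy were lower. Meg3 had 10.4, 7.08 and 9.27 CPM in the FoxOi libraries and 59.6, 58.1 and 60 CPM in the Loperamide libraries, without overlap (log2 fold change -2.73 ± 0.17, adjusted p = 9.58e-09). Rian (-2.40 ± 0.11) and Mirg (-1.53 ± 0.28), host transcripts of small RNAs, and Dlk1, a Notch-like ligand from the paternal copy (-1.16 ± 0.22), were lower too. Rtl1, on the strand opposite to the non-coding RNAs, had 81 counts in FoxOi and 2 in Loperamide (ratio 27.9, counting interval 7.47 to 234). The strand setting of the counting is not given in the sources used here, so reads from Rtl1 and its antisense transcript may not be told apart.

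**Figure D4:**
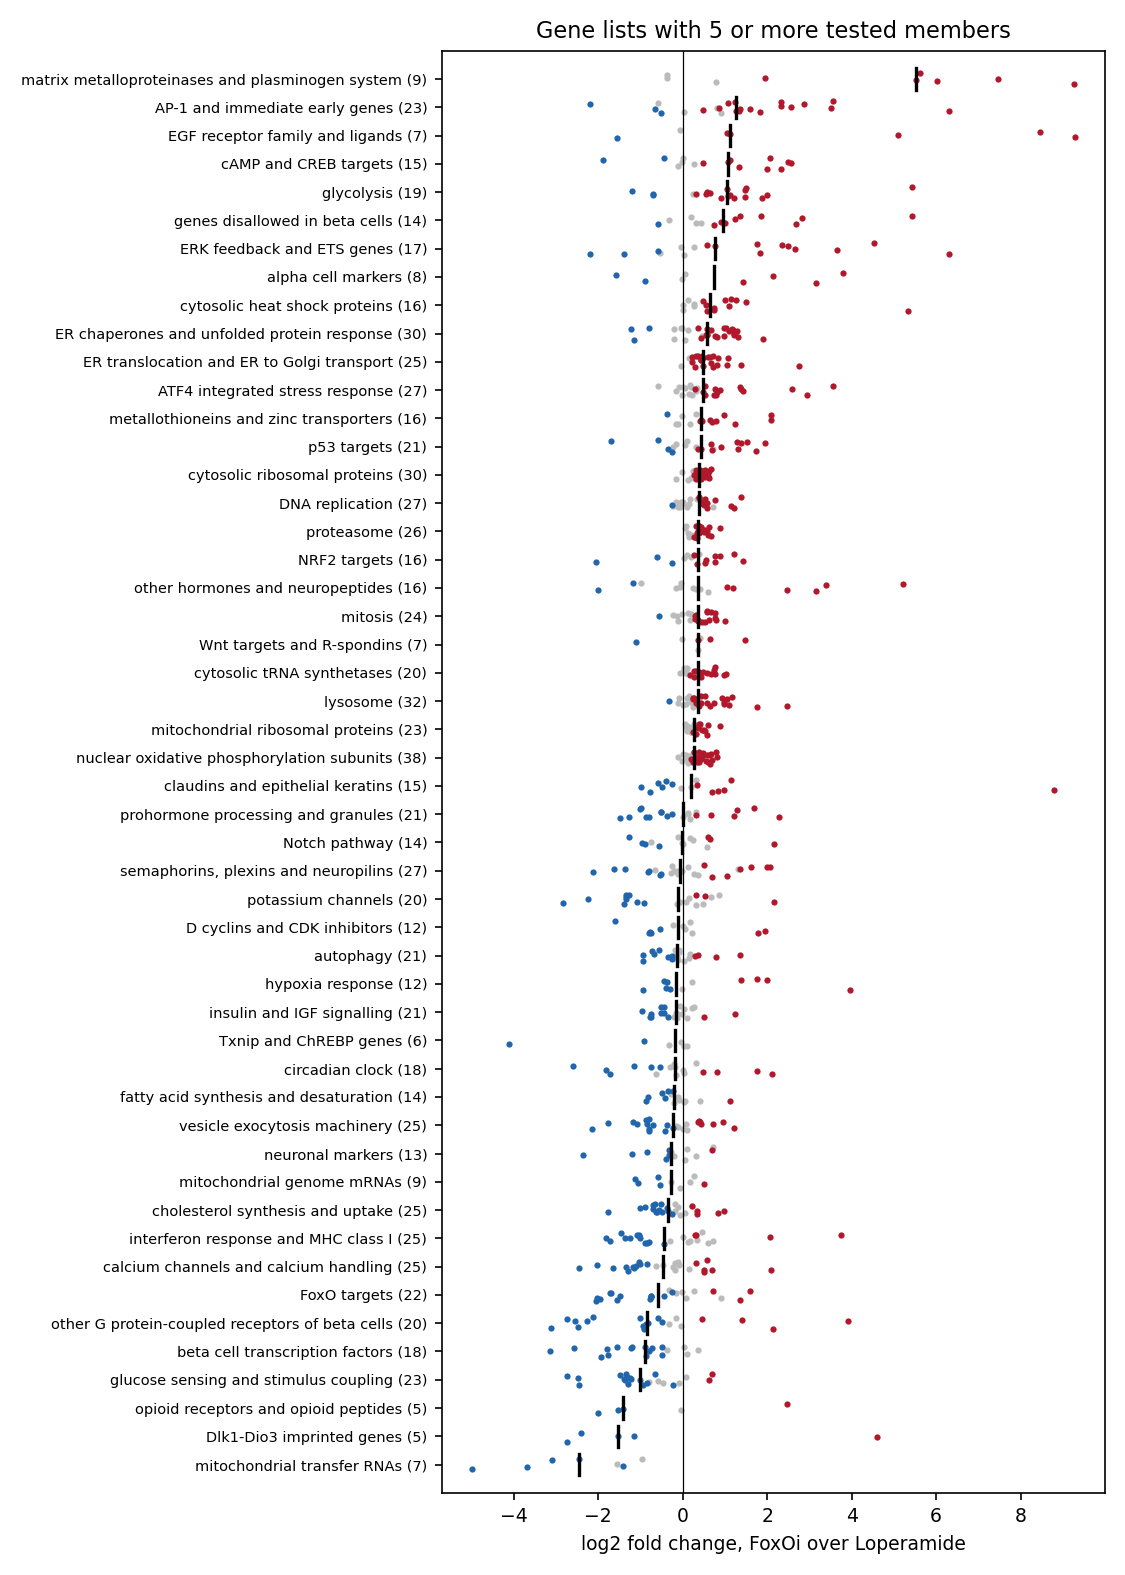
Each row is 1 gene list with at least 5 tested members, and each point is the log2 fold change, FoxOi over Loperamide, of 1 member, coloured by call, with the list's median as a black bar. The median over all tested genes is 0.02. Medians lie highest for the metalloproteinase and plasminogen group (5.52), and lowest for the mitochondrial transfer RNAs (-2.45).

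Each compound was also set against DMSO, so that the direct difference can be read beside its parts. Both of these comparisons share the DMSO libraries, and their values are given side by side only. Against DMSO 40.9% of genes were called for FoxOi and 31.9% for Loperamide. For Mafa and Ins2, the FoxOi libraries lay away from DMSO and the Loperamide libraries nearer to it. Mafa differed from DMSO by -3.23 ± 0.15 with FoxOi (adjusted p = 3.33e-09) and by -0.09 ± 0.14 with Loperamide (adjusted p = 0.66), and Ins2 by -1.36 ± 0.13 and -0.10 ± 0.13. The list of beta cell transcription factors had a median of -0.99 with FoxOi and 0.00 with Loperamide.

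For Pcsk1, Hspa5 and Gcg, the Loperamide libraries lay farther from DMSO. Pcsk1 differed from DMSO by -0.11 ± 0.09 with FoxOi and -1.33 ± 0.09 with Loperamide, Hspa5 by -0.17 ± 0.09 and -1.38 ± 0.09, and Gcg by 0.59 ± 0.19 (adjusted p = 0.027) and -2.56 ± 0.21 (adjusted p = 2.21e-06). The ER chaperone list had a median of -0.41 with FoxOi and -0.95 with Loperamide, and the mitosis list -0.63 and -1.01, so that both compounds lay below DMSO and loperamide lay lower. Cholesterol genes had medians of 0.32 with FoxOi and 0.79 with Loperamide, and FoxO targets -0.14 and 0.61. In some genes the compounds moved to opposite sides of DMSO. Vgf differed by 0.57 ± 0.08 with FoxOi and -1.72 ± 0.08 with Loperamide, Abcc8 by -0.71 ± 0.08 and 0.61 ± 0.08, Atp2a3 by -1.60 ± 0.09 and 0.84 ± 0.08, and Spp1 by 4.94 ± 0.15 and -3.19 ± 0.24, and each of these differences was called.

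**Figure D5:**
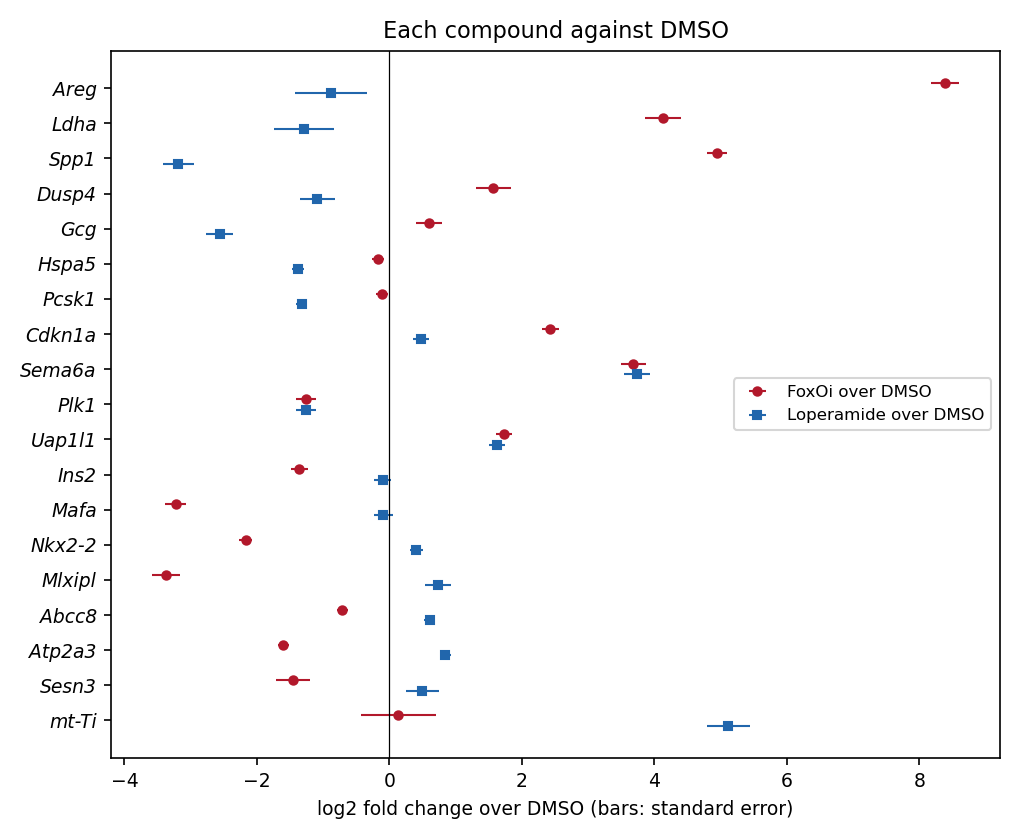
The log2 fold change over DMSO is plotted with its SE for 19 genes, FoxOi and Loperamide side by side, from edgeR's fit of all 12 libraries. Mafa, Ins2 and Nkx2-2 lie low with FoxOi, Hspa5 and Pcsk1 lie low with Loperamide, Abcc8, Atp2a3 and Spp1 lie on opposite sides of DMSO, and Sema6a, Plk1 and Uap1l1 lie on the same side with both compounds.

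A set of genes was picked because it moved away from DMSO by much with both compounds while the direct difference was small, so their values are a description. Sema6a, a guidance ligand, had 103 ± 4.34 CPM in FoxOi and 107 ± 25.6 CPM in Loperamide, against 8.05 ± 1.44 CPM in DMSO, and the 95% interval of the direct log2 difference was -0.40 to 0.29. Uap1l1 had 274 ± 27.6 CPM in FoxOi and 255 ± 15.7 CPM in Loperamide, against 82.6 ± 14 CPM in DMSO (interval -0.15 to 0.35). On the other side, the mitotic kinase Plk1 had 41 ± 7.81 CPM in FoxOi and 41.1 ± 6.56 CPM in Loperamide, against 98.3 ± 13.9 CPM in DMSO (interval -0.33 to 0.32), and the vesicle coat protein Copz2 had 20.6 ± 3.73 CPM in FoxOi and 20.1 ± 1.32 CPM in Loperamide, against 55.7 ± 10.1 CPM (interval -0.33 to 0.40). Akna (-0.21, adjusted p = 0.189, or 0.0207 under the replicate block), Sp8 (-0.12) and Rhd (-0.16) also had small direct log2 differences. The guanylate cyclase receptor Gucy2c was called higher in FoxOi (log2 fold change 0.28 ± 0.09, adjusted p = 0.0196), a call that was lost without FoxOi replicate 1 or 3 or Loperamide replicate 1.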

How the data were processed

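The 12 libraries, 3 in each of 4 groups, were made with a stranded poly(A) kit and read as short single reads, per the labels. From the authors' deposit, the raw gene counts were used, and the FPKM values that the authors also deposited were not. The submitters' processing notes name STAR 2.7.5a and Picard 2.19.2 as well as DESeq2, with GRCm38 and mm10 as builds. How reads were counted, and with which strand setting, is not given in the sources used here. Gene names and coordinates are those of the deposited files.

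A quasi-likelihood model of edgeR 4.0.16 (R 4.3.3), with TMM scaling, robust dispersion and only the group as a term, was fitted to the counts of all 12 libraries. filterByExpr (minimum count 10, minimum total 15) kept 16808 genes, over which p-values were adjusted by Benjamini-Hochberg, with a threshold of 0.05 for a call. Log2 fold changes used a prior count of 0.125, and their SE was taken as their absolute value over the square root of F. CPM are scaled to 1000000 counts of the TMM library size. Where a group had 0 counts, 3 counts in that group served as the floor, and ratios of counts carry exact 95% intervals. The test was checked on simulated data. Chi-square per degree of freedom between libraries of 1 group ran from 5.34 to 19.7, where counting error alone gives about 1.

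The labels number the libraries 1 to 3 in each group. Deviations from the group means correlated at 0.299, 0.115 and 0.344 for same-numbered FoxOi and Loperamide libraries and at -0.331 to 0.04 for the others, so the number was also tried as a block. Other alternatives were DESeq2 size factors, DESeq2 1.42.0, no filter and a stricter one, the 6 libraries alone, and leaving out each library. Members and the 60 gene lists were chosen with earlier results of these data known. Named genes are 12 fixed ones, the 12 largest rises and falls with at least 1 CPM, the 8 most abundant called each way, up to 4 of smallest adjusted p per list, and 8 that moved alike against DMSO, 233 in all, of which some are not reported here. Chosen outside this rule, after their values were seen, were Abcc8, Aldoa, Aldoc, Btc, Calr, Cat, Ccng2, Cd68, Csf1r, Ctsb, Ddit3, Derl3, Dlk1, Dusp4, Egr1, Ero1l, Ero1lb, Fosl2, G6pc2, Gadd45a, Hmox1, Hspa5, Htr1d, Iapp, Insm1, Irf7, Isl1, Jun, Krt18, Krt7, Krt8, Lamp1, Lamp2, Mmp12, Mt1, Neurod1, Nfil3, Nr1d2, Nr4a1, Nts, Ppp1r15a, Rfx6, Ryr2, Sdf2l1, Sesn3, Slc7a11, Spry2, Sst, Syt4, Trib3 and Gm19619. Bhlha15, Cacna1c and Lyz2 were also named after their values were seen, and they are outside the counts of named genes. Promoters are the 250 bases before each gene's start in RefSeq on GRCm38.p6.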

Additional observations from a re-analysis of the deposited data

How the results depend on the processing

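The number of called genes, 8331, was 8317 with DESeq2 size factors in edgeR, 8751 with no filter on low counts, 8098 where genes needed at least 1 CPM in 3 libraries, 8143 with DESeq2 and 8250 with the 6 libraries fitted alone. Of the 8331 genes, 8262, 7708, 8047, 7869 and 7896 were shared with these settings in turn. Leaving out 1 library gave 7383 to 7699 called genes, 3744 to 3937 higher, 3546 to 3789 lower and 2432 to 2525 changed at least 2-fold, the last count spanning 2173 to 2874 over all settings. Every one of these counts stayed within 1.5 times its value in the report. Pairing libraries of the same number, as a replicate block, gave 10545 called genes, 8330 of them also called without it. Among the named genes the block changed the calls of Akna, Ddit3, Trib3 and Txnip and no other. Of 285 named genes, 272 were called, 12 changed call under any setting and 0 of the called ones changed direction. Changes of sign in genes that were not called were not counted. No setting moved the median of all genes by more than 0.1 log2 units. DESeq2 gave smaller log2 fold changes for genes with 0 counts in Loperamide, such as Mmp13 (8.37). Depth limits the size of rises from near 0, since the Loperamide libraries were the shallower ones, and 3 libraries per group from 1 line limit how far the spread can be known.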

Other observations

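Calls were counted by gene class, with no test between classes. Of 336 tested antisense RNAs, 32 were higher and 106 lower in FoxOi, and of 350 long intergenic non-coding RNAs, 32 were higher and 106 lower, beside 3445 higher and 3507 lower of 12907 protein-coding genes. Of 2258 tested processed pseudogenes, 664 were higher and 112 lower. Their reads cannot be told apart from those of the parent genes with certainty, and antisense counts depend on a strand setting that no label gives. The antisense, intergenic and pseudogene classes were looked at after the values were seen.

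The opioid system, the textbook target of loperamide, was measured at low level apart from the peptide precursor Pdyn. Pdyn averaged 569 CPM in FoxOi, 2294 CPM in Loperamide and 3597 CPM in DMSO. The mu receptor gene Oprm1 had 0.813, 0.384 and 0.307 CPM in the FoxOi libraries and 1.12, 1.6 and 1.58 CPM in the Loperamide libraries, with a log2 fold change of -1.54 ± 0.36 (adjusted p = 0.00253). The delta receptor gene Oprd1 was lower at 0.507 ± 0.0508 CPM in FoxOi and 1.32 ± 1.07 CPM in Loperamide, but its call was lost when any 1 of the FoxOi replicates or Loperamide replicate 3 was left out (log2 fold change -0.55 without the last). Proenkephalin (Penk), the precursor of enkephalins, was higher at 1.2 ± 0.122 CPM in FoxOi and 0.206 ± 0.153 CPM in Loperamide, with a log2 fold change of 2.47 that was 3.22 without Loperamide replicate 2.

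Metallothioneins and zinc transporters were higher for 10 of 16 tested genes (median 0.44), with the zinc carriers Slc30a4 at 2.09 ± 0.18 and Slc39a8 at 1.24 ± 0.09 and the metal-binding Mt2 at 0.79 ± 0.14. Mt1 (0.43 ± 0.13) was not called without FoxOi replicate 1. Of 27 tested semaphorins, plexins and neuropilins, 7 were higher (3 without FoxOi replicate 3, and 4 without Loperamide replicate 1 or 2) and 7 lower, with the secreted guidance cues Sema3c (2.00 ± 0.24) and Sema3e (2.07 ± 0.25) higher and the membrane-bound Sema6b (-2.13 ± 0.21) lower. In the Notch pathway 3 of 14 tested genes were higher, with the ligand Jag1 at 2.16 ± 0.23, and 4 lower, with the receptor Notch1 at -1.27 ± 0.15, or 2 lower without FoxOi replicate 2 or 3 or without Loperamide replicate 2. The share called was 51.9% in the semaphorin list and 50% in the Notch list, near the 49.6% of all tested genes. Their medians were -0.07 and -0.004, so neither list stood apart from the background.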
